A study of Rattus norvegicus with 7 samples.

Results

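The genes described here make, break down and read out the cyclic nucleotides cAMP and cGMP. They were the symbols listed in the expression tables of both hippocampus and hypothalamus that name an adenylate cyclase (Adcy), a phosphodiesterase (Pde), a guanylate cyclase (Gucy) or a subunit of protein kinase A (Prkar, Prkac), and numbered 45 of 15892 shared symbols. Chosen by name, they comprised 9 adenylate cyclases, 16 phosphodiesterases outside the photoreceptor family, 5 subunits of the photoreceptor family, 9 guanylate cyclase subunits or receptors and 6 protein kinase A subunits. RNA sequencing had been done on whole hippocampus (4 libraries) and whole hypothalamus (3 libraries) of male Sprague Dawley rats that were 2 months old when they entered the study. All 7 libraries came from animals on a diet containing the omega-3 fatty acid DHA for 6 weeks. Chow-fed rats are not analysed here, so nothing below is an effect of the diet. The labels do not say whether the hippocampus and hypothalamus libraries came from the same animals.

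Adenylate cyclases convert ATP to cAMP when receptors act through the stimulatory G protein, and the isoforms differ in how calcium, calmodulin, inhibitory G proteins and protein kinases tune them. Cyclic AMP binds the regulatory subunits of protein kinase A and so frees its catalytic subunits, and phosphodiesterases end the signal by hydrolysing cAMP, cGMP or both. In hippocampus this pathway is known for its part in long-term synaptic plasticity, and in hypothalamus it carries the signals of many peptide and hormone receptors.

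Levels are FPKM (sequenced fragments of a gene, scaled to transcript length and to all mapped fragments) as the authors deposited them, in replicate order where several are listed. FPKM is scaled by transcript length, so levels of different genes can be set side by side. For the comparison of tissues, each library was rescaled to the same sum over shared symbols, and the difference is that of mean log2(rescaled value + 1), hippocampus minus hypothalamus, which understates the change of low genes. A gene was called higher in a tissue when all of its libraries there lay above all libraries of the other tissue and the means differed at least 2-fold. The tissues were deposited in separate tables, so tissue and table cannot be told apart and no test was made between them. In bulk tissue, fewer cells of a type and less RNA per cell cannot be told apart either.

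Labels were checked against marker genes. All 5 hippocampal markers (Slc17a7, Neurod6, Wfs1, Itpka, Prox1) were higher in every hippocampus library, and all 6 hypothalamic markers (Oxt, Avp, Pmch, Hcrt, Pomc, Cartpt) in every hypothalamus library. Summed FPKM of the hypothalamic markers was 7.58 to 12.1 in hippocampus and 5948 to 8516 in hypothalamus. Hippocampus libraries were uneven in adjoining tissue. Choroid plexus markers summed to 35.7 in replicate 2 and to between 2096 and 5975 in the other 3 libraries. Acta2, a smooth muscle actin gene, read 818 FPKM in replicate 3 and 5.55 to 90.4 in the others. Hypothalamus libraries were uneven too. Their meningeal markers summed to 109, 203 and 40.5 FPKM, and Acta2 read 167, 240 and 17.7 FPKM.

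Of the 45 genes, 35 averaged 1 FPKM or more in either tissue and could be compared. Adcy2 was set aside because its hypothalamic locus carried the status FAIL in replicate 2. The other 9 stayed under 1 FPKM in both tissues: Adcy10, Gucy1b2, Gucy2d, Gucy2e, Gucy2f, Gucy2g, Pde6a, Pde6b and Pde6c. Among the 35, 4 were called higher in hippocampus (Adcy9, Pde2a, Pde10a and Pde4d), where 14.5% of all 10736 symbols compared were called in that direction. The 3 called higher in hypothalamus were Adcy7, Gucy2c and Pde6h, where 13.4% of all symbols were. Those 3 genes passed the 1 FPKM minimum through hypothalamus alone, so their count carries no weight of its own. In both directions together 20% of the 35 were called, against 27.9% of all symbols. The libraries of the tissues did not overlap at 19 of the 35 genes, against 52.6% of all symbols. The median difference was 0.30 over the 35 genes and 0.05 over all symbols. Of all calls over all symbols, 52.0% were in hippocampus after rescaling and 33.8% with FPKM as deposited, where 3 of these genes were called in hippocampus and 4 in hypothalamus (Adcy7, Gucy2c, Prkacb and Prkar2b). The calls for hippocampus numbered 8 without hypothalamus replicate 1, since Gucy1a2, Gucy1a3, Pde1a and Pde3b then passed as well. Calls rose over all symbols too when that library was left out, to 1816 of 10728 in hippocampus, from 1560 of 10736.

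Promoters of 3 genes are printed because the genes were called in opposite directions (Adcy9 and Adcy7) or hold 2 matches to the motif searched (Pde10a), a choice made after their values were seen. Each run is the 250 bases before the annotated transcription start in RefSeq (GRCr8), 5′ to 3′ on the gene's strand. Capitals mark TGACG or its reverse complement CGTCA, the core of the cAMP response element TGACGTCA that the factor CREB binds. The Pde10a sequence belongs to 1 of 2 annotated starts, and 1 of 5 Pde4d windows and the single Prkaca window also held 2 matches.
Adcy9, chr10:11645595-11645844, + strand: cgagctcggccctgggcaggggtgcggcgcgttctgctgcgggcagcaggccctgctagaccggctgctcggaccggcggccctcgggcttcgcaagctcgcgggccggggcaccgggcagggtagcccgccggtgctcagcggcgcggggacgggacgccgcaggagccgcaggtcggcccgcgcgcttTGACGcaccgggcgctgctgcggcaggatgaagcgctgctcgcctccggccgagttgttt
Adcy7, chr19:34936545-34936794, - strand: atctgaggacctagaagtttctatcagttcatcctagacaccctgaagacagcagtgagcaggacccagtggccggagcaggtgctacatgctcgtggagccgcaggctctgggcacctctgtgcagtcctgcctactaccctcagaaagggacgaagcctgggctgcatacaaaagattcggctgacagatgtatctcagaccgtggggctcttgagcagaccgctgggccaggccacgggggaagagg
Pde10a, chr1:54765669-54765918, - strand: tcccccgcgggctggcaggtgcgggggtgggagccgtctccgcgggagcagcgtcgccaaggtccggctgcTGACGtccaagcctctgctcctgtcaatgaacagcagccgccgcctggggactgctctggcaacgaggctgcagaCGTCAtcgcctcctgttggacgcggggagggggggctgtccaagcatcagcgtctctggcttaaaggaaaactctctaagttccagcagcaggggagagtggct
The Adcy9 window held 1 core match, 60 bases before the start, and the Adcy7 window held 0. Across 31 of the 45 genes with an entry, 8 of 42 such windows held a core match on either strand (19.0%), against 18.2% of 33469 windows in the whole reference table. The full element was in 0 of the 42 and in 1.59% of all windows. The matches are a description of these letters only.

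Of 7 adenylate cyclases compared, Adcy9 was called higher in hippocampus and Adcy7 in hypothalamus, and the call of Adcy1 depended on the locus used. Adcy9, the isoform least sensitive to forskolin, read 29.2, 26.0, 24.2 and 28.2 FPKM in hippocampus and 1.09, 1.03 and 0.999 FPKM in hypothalamus. Every hippocampus library was thus far above every hypothalamus library. The difference of 4.51, or 22.8-fold, was the highest of the 35 genes at 1 locus per gene by highest mean (with loci summed it was 4.47, below 4.90 for Adcy1), and it ran from 3.77 to 4.51 over the 4 scalings tried.

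Adcy1, a calmodulin-stimulated cyclase studied in hippocampal plasticity, was listed at 2 loci in hippocampus, and the choice between them decided its call. XLOC_009499, the locus with the higher mean (65.7 against 64.2 FPKM), read 0, 103, 59.4 and 101 FPKM. XLOC_009131 read 75.5, 74.5, 59.0 and 47.8 FPKM. The single hypothalamic locus read 6.17, 3.92 and 3.83 FPKM. With the locus of higher mean, replicate 1 at 0 made the tissues overlap and Adcy1 was not called, at a difference of 2.41. At the other hippocampal locus every library was above hypothalamus, and the difference of 4.01 met the call rule. That other locus sat among rows whose genes lie on the + strand, the strand to which RefSeq assigns Adcy1.

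Adcy2, a cyclase stimulated by Gβγ together with Gαs, was high in both tissues, at 58.1, 62.9, 56.6 and 58.6 FPKM in hippocampus and 55.0, 45.2 and 47.8 FPKM in hypothalamus. The hypothalamic value of replicate 2 is the one with the status FAIL. With it kept, all hippocampus libraries lay above hypothalamus after rescaling, by 0.54. Adcy5, an isoform inhibited by Gi and by calcium, read 43.7 to 52.0 FPKM in hippocampus and 30.9 to 35.9 FPKM in hypothalamus. Adcy6, its nearest relative, read 10.1 to 13.2 and 8.65 to 8.89 FPKM. The libraries of both genes did not overlap, but the differences of 0.83 and 0.65 were under 2-fold.

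Adcy7 was the cyclase called in the opposite direction. It read 0.646, 1.02, 0.880 and 0.889 FPKM in hippocampus and 4.002, 2.79 and 3.29 FPKM in hypothalamus, a difference of −1.35. The lowest hypothalamus library was above the highest hippocampus library. Adcy7 is known from immune cells, among others. Of 5 microglial markers, all above 0 in every library, 2 were higher in every hypothalamus library after rescaling and 1 in every hippocampus library. Their sum was 83.3 to 111 FPKM in hippocampus and 123 to 128 FPKM in hypothalamus as deposited, but overlapped after rescaling (239 to 323 and 280 to 306). Their part in the difference was not tested. Adcy8, the other calmodulin-stimulated cyclase measured in both tables, read 4.12 to 4.99 and 5.39 to 7.43 FPKM and overlapped after rescaling. Adcy4 overlapped as well, at 0.888 to 2.43 and 1.26 to 1.42 FPKM. Adcy10, the soluble bicarbonate-sensitive cyclase, did not exceed 0.334 FPKM in any library.

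Shares within a library do not depend on how the tables were scaled against each other. They were computed as the percent of a family's summed FPKM, with the locus on the annotated strand where RefSeq gives a strand. Of the cyclase sum, Adcy1 held 29.4% ± 4.09 (SD, n = 4) in hippocampus and 4.26% ± 0.78 (SD, n = 3) in hypothalamus. Adcy9 held 12.4% ± 1.52 and 0.970% ± 0.0634. Adcy2 held 27.3% ± 1.86 in hippocampus and 45.8% ± 0.33 in hypothalamus, and Adcy5 held 22.1% ± 2.10 and 30.6% ± 0.59. The Adcy2 share includes the value with the status FAIL. The libraries of the tissues did not overlap for any of these 4 shares. Adcy2 and Adcy5 therefore had a larger share in hypothalamus although their own FPKM was lower there, with a cyclase sum of 217 ± 16.4 FPKM in hippocampus and 108 ± 10.7 FPKM in hypothalamus. With the locus of higher mean in place of the annotated strand, the hippocampal share of Adcy1 was 26.9% ± 18.8 and overlapped the hypothalamic one, and with loci summed it was 44.9% ± 8.67.

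**Figure D1:**
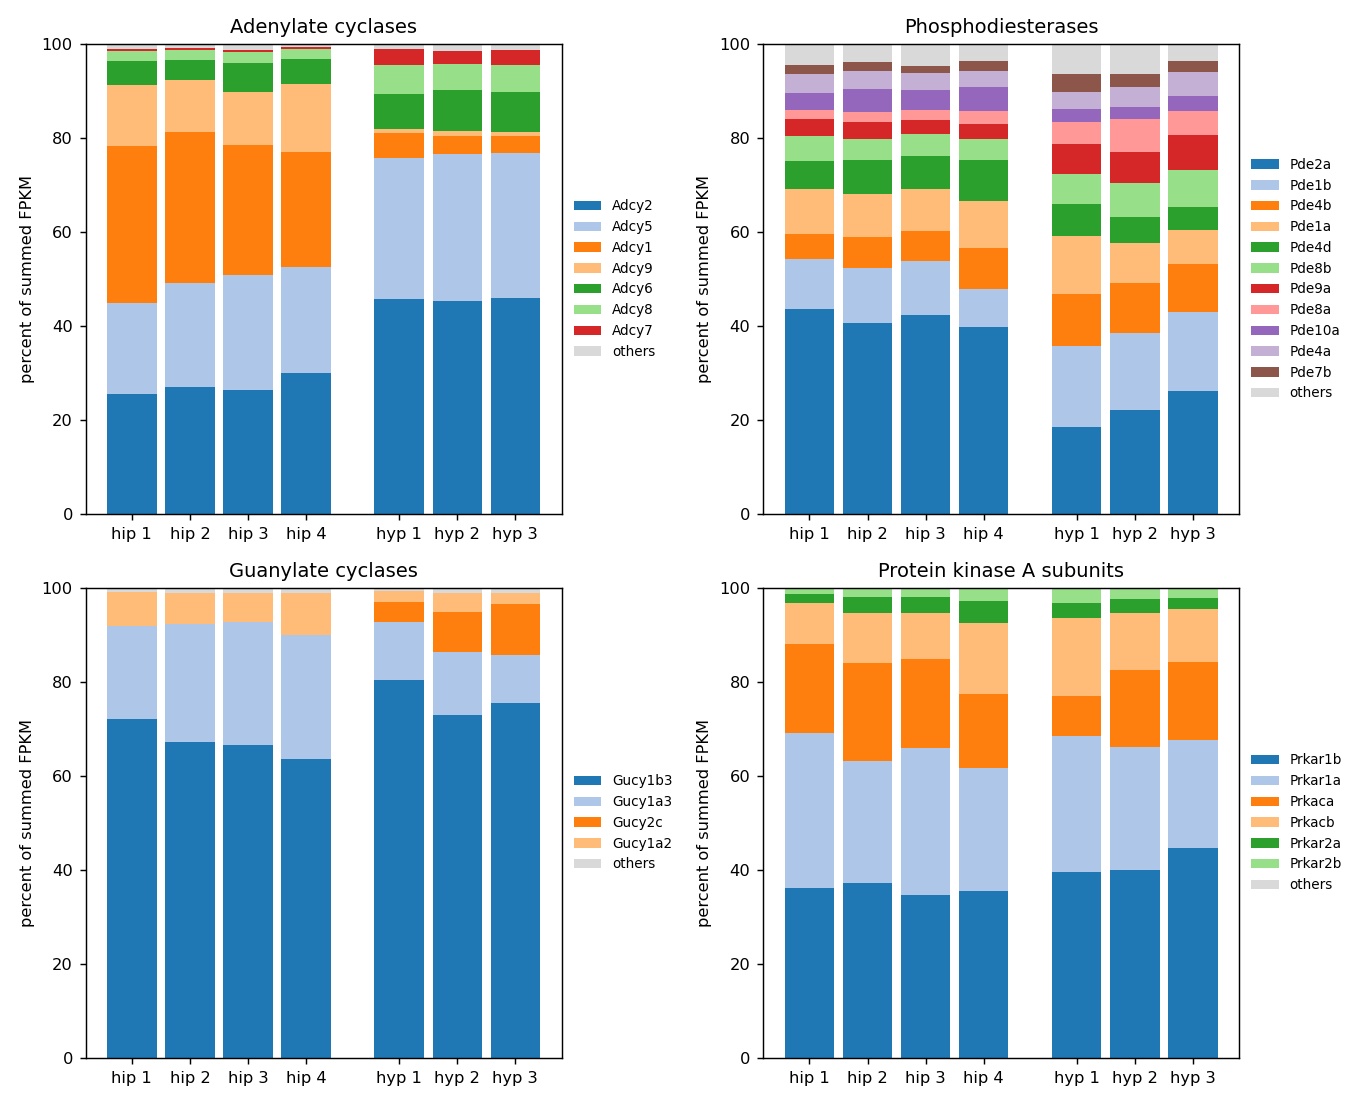
Percent of the summed FPKM of each family held by its genes, 1 bar per library (hip 1 to 4, hippocampus; hyp 1 to 3, hypothalamus), with the locus on the annotated strand where known. Adcy1 and Adcy9 together fill a large part of the hippocampal cyclase bars and little of the hypothalamic ones, and Pde2a fills more of the hippocampal phosphodiesterase bars.

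Of 16 phosphodiesterases compared, 3 (18.8%) were called higher in hippocampus, near the 14.5% of all symbols, and 0 in hypothalamus, against 13.4%. The libraries of 8 did not overlap, each with hippocampus above, where 28.2% of all symbols had hippocampus above and 24.4% hypothalamus. With FPKM as deposited, 5 lay above in hippocampus and 2 (Pde8a and Pde9a) in hypothalamus. The median difference over all symbols was −0.21 in that setting, and the share of all symbols lying above is not given here. After rescaling, the median difference of the 16 was 0.38, against 0.05 for all symbols.

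Pde2a, a dual-substrate enzyme that cGMP stimulates to hydrolyse cAMP, was the most abundant phosphodiesterase outside the photoreceptor family in both tissues. It read 132, 135, 132.5 and 131 FPKM in hippocampus and 37.1, 43.1 and 53.9 FPKM in hypothalamus. The tissues lay far apart, with a difference of 1.87 (3.66-fold, 1.56 to 1.87 over the scalings). Its share of the phosphodiesterase sum was 41.6% ± 1.71 (SD, n = 4) and 22.3% ± 3.87 (SD, n = 3).

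Pde10a, a dual-substrate enzyme best known from striatal medium spiny neurons, read 11.1, 15.8, 12.8 and 16.7 FPKM in hippocampus and 5.63, 4.87 and 6.27 FPKM in hypothalamus. Hippocampus was above hypothalamus in every library, by 1.55 (2.93-fold). Striatal markers summed to 66.2 to 79.1 FPKM in hippocampus and to 253 to 339 FPKM in hypothalamus, so that sum was higher in the other tissue, with 3 of 7 markers higher in every hypothalamus library and 1 in every hippocampus library. The 1 marker higher in hippocampus was Drd1, at 3.78 to 5.28 FPKM there and 2.42 to 2.49 FPKM in hypothalamus. All 7 markers were above 0 in at least 1 library, and the sum was mostly Penk and Ppp1r1b, which other regions also express. The part of striatal tissue in the Pde10a levels was not tested.

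Pde4d, a cAMP-specific enzyme of the rolipram-sensitive family, read 18.2, 23.7, 21.4 and 28.4 FPKM in hippocampus and 13.4, 10.9 and 9.95 FPKM in hypothalamus. The groups did not overlap and differed by 1.27 (2.41-fold), but with FPKM as deposited the difference was 0.94 and the call was lost. The related Pde4a did not overlap either, at 10.9 to 12.8 and 6.86 to 10.8 FPKM, a difference of 0.73. Pde4b read 16.3 to 28.3 and 20.7 to 22.1 FPKM, and its libraries overlapped.

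Pde1b, a calmodulin-stimulated enzyme that hydrolyses both nucleotides, was next in mean abundance outside the photoreceptor family, in both tissues at 1 locus per gene. With loci summed, Pde1a held 14.7% of the hippocampal sum and Pde1b 9.74%. Pde1b read 32.2, 39.1, 35.7 and 26.5 FPKM in hippocampus and 34.6, 31.5 and 34.6 FPKM in hypothalamus, with overlap. Its difference of 0.27 changed sign to −0.02 with FPKM as deposited. Pde1a, of the same family, read 28.5, 30.5, 28.2 and 33.02 FPKM in hippocampus and 25.0, 16.4 and 14.9 FPKM in hypothalamus, where replicate 1 was the high library. It did not overlap, and its difference of 0.99 stood just under the 2-fold limit. With its 2 hippocampal loci summed, the difference was 1.65 and met the call rule. Pde1c stayed at 1.32 to 1.99 FPKM over all 7 libraries.

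Among the cAMP-specific Pde7 and Pde8 genes no call was made. Pde8b read 14.6 to 15.8 FPKM in hippocampus and 12.8 to 15.9 FPKM in hypothalamus, and its libraries did not overlap after rescaling but did in FPKM as deposited. Pde8a ran the other way, at 6.10 to 9.08 and 9.51 to 13.8 FPKM, with overlap after rescaling and none in FPKM as deposited. Pde7a was at 2.44 to 2.71 and 1.90 to 2.92 FPKM, with no overlap after rescaling and a difference of 0.36. Pde7b, at 5.25 to 7.20 and 4.47 to 7.87 FPKM, overlapped.

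Pde3b, a cAMP-hydrolysing enzyme that cGMP inhibits, read 3.99 to 5.03 FPKM in hippocampus and 2.47 to 4.09 FPKM in hypothalamus. Its difference was 0.80, with no overlap after rescaling. Pde3a and the cGMP-specific Pde5a, both known from vascular smooth muscle, were low and uneven. Pde5a read 3.18, 3.01, 4.06 and 2.00 FPKM in hippocampus and 2.23, 4.38 and 1.14 FPKM in hypothalamus. Pde3a read 1.05, 1.17, 2.07 and 1.43 FPKM and 1.58, 2.13 and 0.726 FPKM. Both were highest in hippocampus replicate 3 and hypothalamus replicate 2, the libraries with the highest sums of 6 smooth muscle and pericyte markers (1029 and 641 FPKM, against 71.1 at the lowest). Those sums were mostly Acta2 and Tagln (818 and 161 FPKM in hippocampus replicate 3), and 3 of the 6 markers in hippocampus and 4 in hypothalamus were highest in the library named. None of the 6 was at 0, and their part in these values was not tested. Those libraries also had the highest sums of meningeal markers (143 and 203 FPKM) and choroid plexus markers (5975 and 54.2 FPKM). In each of these lists 1 gene was at 0 in every library, and their part was not tested either. Pde9a, the high-affinity cGMP phosphodiesterase, read 9.26 to 11.9 and 12.4 to 15.6 FPKM and overlapped after rescaling.

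Grouped by substrate, enzymes that hydrolyse both nucleotides held 68.3% ± 2.12 of the phosphodiesterase sum in hippocampus and 54.3% ± 1.63 in hypothalamus. Those specific for cAMP held 27.4% ± 2.48 and 37.6% ± 1.30, and those specific for cGMP held 4.30% ± 0.39 and 8.10% ± 0.60 (SD, n = 4 and n = 3). None of these 3 shares overlapped between the tissues. Each of the 3 shares contains the Pde2a level in its denominator. The phosphodiesterase sum was 319 ± 13.5 FPKM in hippocampus and 200 ± 5.79 FPKM in hypothalamus, so a larger share need not be a higher level. Of the 7 cAMP-specific genes, 6 had a positive difference after rescaling, that is, a higher level in hippocampus, and 1 a negative one.

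Of the photoreceptor family, Pde6d, a small subunit that binds prenylated proteins and is known outside the retina, was the one abundant gene, at 39.5, 43.2, 40.7 and 33.4 FPKM in hippocampus and 51.4, 66.4 and 69.9 FPKM in hypothalamus. Every hypothalamus library was above after rescaling, with a difference of −0.37, under 2-fold. The margin was narrow (122.3 against 121.5 in rescaled values), and the libraries overlapped under median-ratio scaling and with loci on the annotated strand. Pde6h, an inhibitory subunit of cones, was listed at 0, 0.229, 0 and 0.204 FPKM in hippocampus and at 0.882, 0.690 and 1.81 FPKM in hypothalamus. All libraries of hypothalamus were above those of hippocampus, with a difference of −1.45, but the call was lost under the other 3 scalings, and without hypothalamus replicate 3 the gene fell under the minimum. Summed over 6 markers of retina and pineal, FPKM was at most 0.944 in hippocampus and 1.18 to 2.70 in hypothalamus, and their part was not tested.

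**Figure D2:**
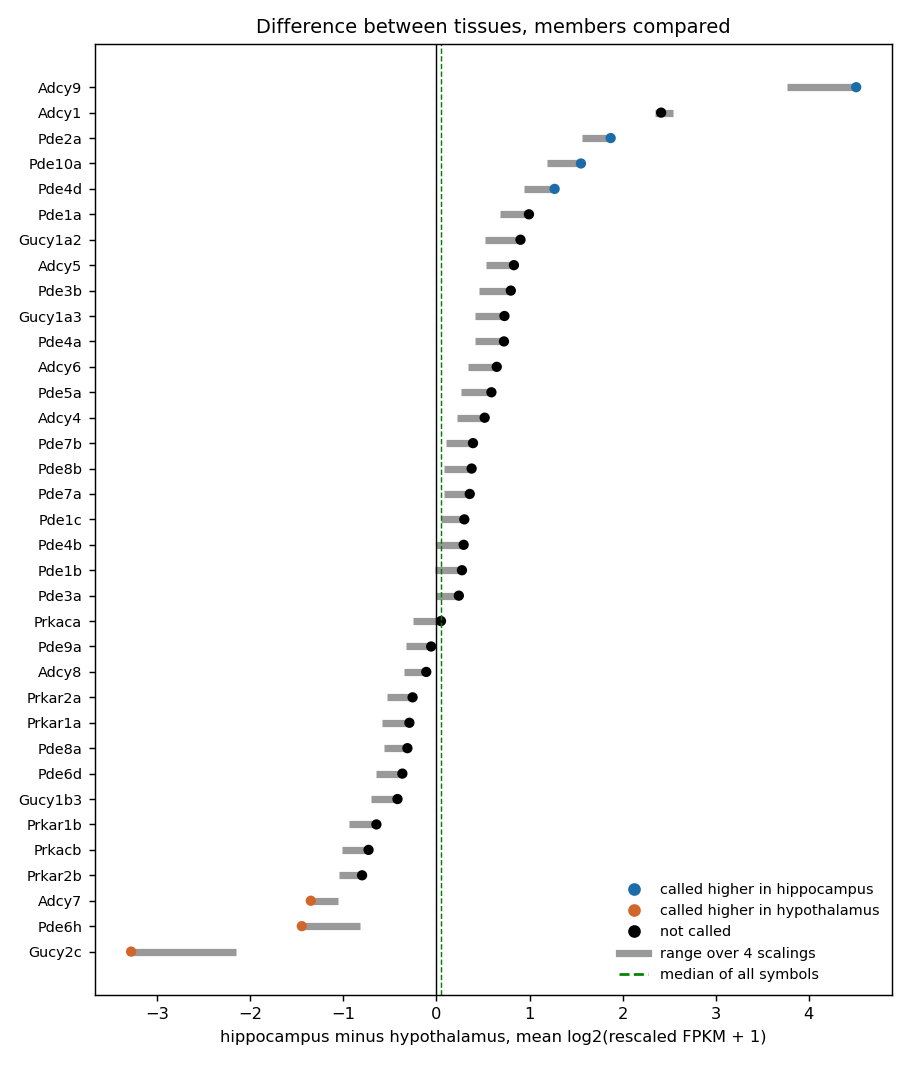
Difference of mean log2(rescaled FPKM + 1), hippocampus minus hypothalamus, for the 35 genes compared. Dots are the values after rescaling to the same sum, grey bars the range over 4 scalings, and the dashed line the median of all symbols (0.05). Adcy9 stands at 4.51 and Gucy2c at −3.28, with most genes within 1 of zero.

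Guanylate cyclases make cGMP, the soluble ones as an αβ pair that nitric oxide activates and the receptor ones in response to peptides. Gucy1b3, the β1 subunit now named Gucy1b1, was the most abundant, at 21.8, 26.6, 25.1 and 27.5 FPKM in hippocampus and 62.6, 31.9 and 35.8 FPKM in hypothalamus. Hypothalamus replicate 1 was high, and after rescaling the libraries overlapped. Its α1 partner Gucy1a3, now named Gucy1a1, read 6.00, 9.94, 9.85 and 11.4 FPKM against 9.70, 5.90 and 4.86 FPKM, and overlapped too. The ratio of β1 to α1 did not overlap, at 2.41 to 3.63 in hippocampus and 5.41 to 7.36 in hypothalamus. Gucy1a2, the α2 subunit, read 2.15 to 3.87 and 1.11 to 1.84 FPKM without overlap, a difference of 0.90. Gucy1b2 did not exceed 0.471 FPKM.

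Gucy2c, the receptor for guanylin and uroguanylin, had the largest difference towards hypothalamus of the 35 genes. It read 0.0270, 0.0107, 0.0141 and 0.0184 FPKM in hippocampus and 3.19, 3.66 and 5.21 FPKM in hypothalamus, a difference of −3.28. These values come from loci in different surroundings. Of the 2 hypothalamic loci, the one that was read, XLOC_019289, lay among rows of which 85.7% are + strand genes. The other, XLOC_019929, lay among rows of which 16.7% are, like the single hippocampal locus (15.8%), and read at most 0.0468 FPKM. Compared at those 2 matching loci, both tissues are near 0. Gucy2d, Gucy2e, Gucy2f and Gucy2g were at most 0.177 FPKM in every library.

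Of 6 protein kinase A subunits, 0 were called and 3 lay above in every hypothalamus library (Prkar1b, Prkar2b and Prkacb), where 13.4% and 24.4% of all symbols did so. With FPKM as deposited, 2 were called and 4 lay above. In that setting 1819 of all 10736 symbols were called in hypothalamus, and the median difference over all symbols was −0.21. The share of all symbols lying above in that setting is not given here. After rescaling, all 4 regulatory subunits had a negative difference, from −0.26 to −0.80. Prkar1b, the RIβ subunit of neurons, was the most abundant of the 45 genes at 1 locus per gene, at 222, 210, 183 and 182 FPKM in hippocampus and 387, 323 and 447 FPKM in hypothalamus. Every hypothalamus library was above every hippocampus library, by 0.65. A second hypothalamic locus of Prkar1b, among − strand genes, read 218, 147 and 185 FPKM in addition, and with loci summed the difference was −1.24 and met the call rule. Prkar1a, which encodes the widely expressed RIα, read 203, 146, 164 and 134 FPKM and 282, 213 and 231 FPKM, with overlap after rescaling. Its difference of −0.29 became 0.34 with loci summed, and Prkar1a then held 39.4% of the hippocampal kinase sum and Prkar1b 30.8%.

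The type II subunits were an order lower. Prkar2b (RIIβ) read 8.55, 10.7, 10.2 and 13.9 FPKM in hippocampus and 31.2, 19.0 and 20.9 FPKM in hypothalamus, with no overlap and a difference of −0.80, which passed 2-fold with FPKM as deposited (−1.05). Prkar2a (RIIα) read 12.1 to 24.5 and 24.0 to 30.6 FPKM and overlapped. Of the catalytic subunits, Prkacb (Cβ) read 52.9, 60.1, 51.3 and 77.6 FPKM and 163, 98.9 and 112 FPKM, higher in every hypothalamus library by 0.73. Prkaca (Cα) read 117, 118, 101 and 80.0 FPKM and 83.0, 132 and 166 FPKM, and overlapped, with a difference of 0.05 that changed sign to −0.25 with FPKM as deposited. Prkaca exceeded Prkacb in all 4 hippocampus libraries, by a ratio of 2.21, 1.96, 1.96 and 1.03, and in hypothalamus replicates 2 and 3 (1.33 and 1.48), but not in hypothalamus replicate 1 (0.508). Regulatory subunits held 70.3% ± 1.82 of the summed FPKM in hippocampus and 72.8% ± 1.71 in hypothalamus, which overlapped.

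Loci of 7 genes in hippocampus and 8 in hypothalamus came in pairs. Rows of the tables follow gene order along each chromosome, once for each of 2 runs, and in hippocampus 93.9% of 11098 single-locus symbols lay on the RefSeq strand of the majority of their neighbours (94.0% of 11283 in hypothalamus). For Adcy1, Pde1a, Prkar1a and Pde5a in hippocampus, the locus in the run opposite to the annotated strand was at or near 0 in replicate 1 and was read in the others. The opposite-run locus of Pde1a read 0.113, 29.1, 15.04 and 43.6 FPKM, and that of Prkar1a read 0, 123, 87.7 and 173 FPKM. That of Pde5a read 0.0574, 1.25, 3.04 and 3.74 FPKM. Pde7b, with no strand in the reference table used, showed this at 1 of its loci in both tissues: 0, 2.05, 1.06 and 3.72 FPKM in hippocampus and 0, 3.95 and 5.08 FPKM in hypothalamus. Pde4d had an opposite-run locus without this pattern, at 1.16 to 2.37 and 0.954 to 1.35 FPKM, as did Prkar1b in hypothalamus. In all of these except Adcy1, the locus used above was the one on the annotated strand or, for Pde7b, the one read in every library. Taking the annotated strand where the reference gives one, 6 genes were called higher in hippocampus, Adcy1 and Pde1a joining the other 4. Of all symbols, 15.2% were called in that direction. The same 3 were called in hypothalamus (13.1% of all symbols). Gucy2c has no strand in the reference table used and kept its locus of higher mean, so this choice could not change its call.

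**Figure D3:**
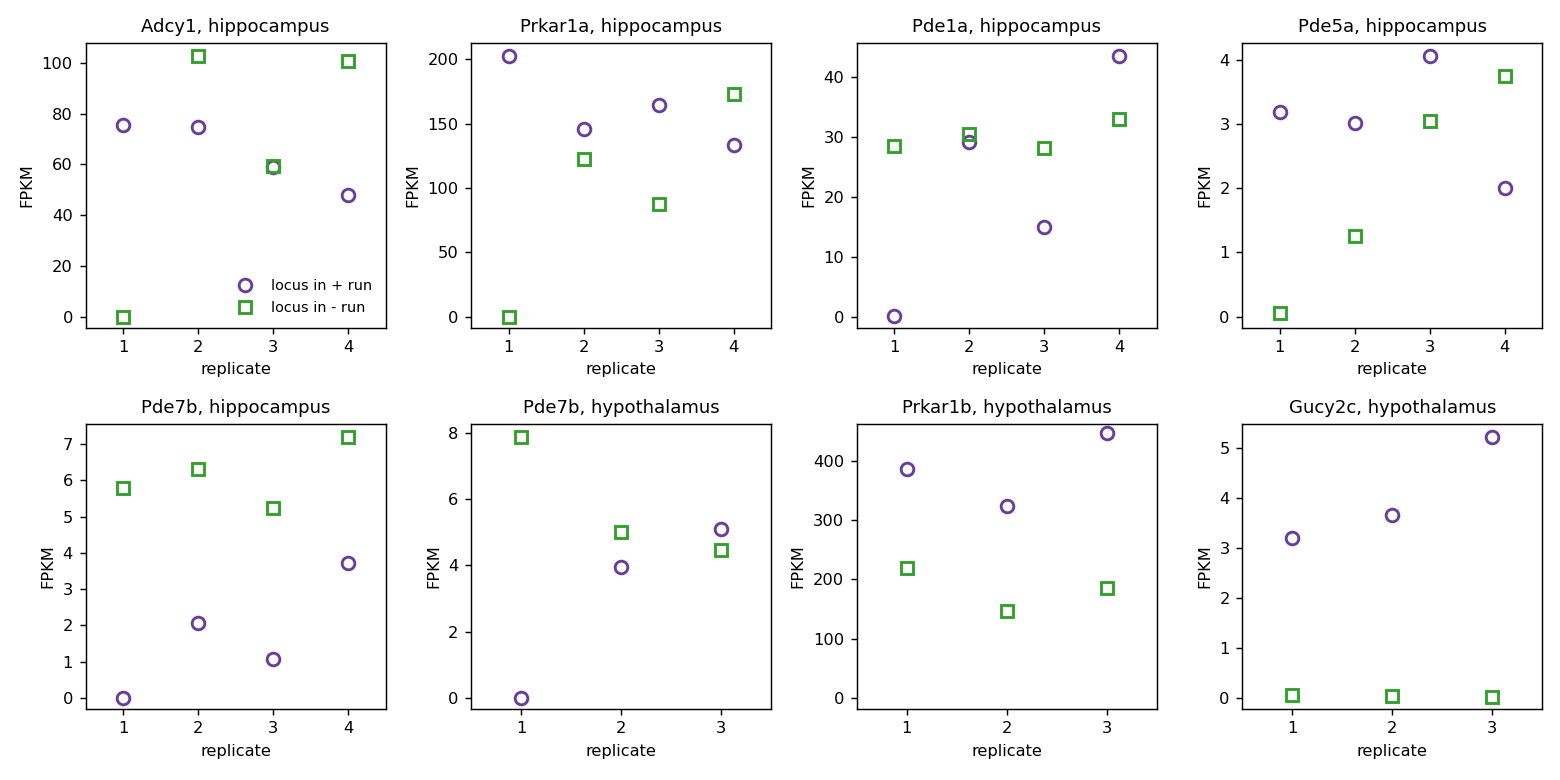
FPKM of both loci of 7 genes by replicate, on linear axes; circles are loci in the run of + strand genes and squares those in the run of − strand genes. In the 4 upper panels and both Pde7b panels, 1 of the loci is at or near 0 in replicate 1. Both Prkar1b loci are read in every hypothalamus library.

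The median SD of log2(FPKM + 1) was 0.17 over 33 genes in hippocampus and 0.24 over all 11197 loci of at least 1 FPKM, and in hypothalamus it was 0.23 over 35 genes and 0.25 over 11483 loci. Without hypothalamus replicate 1 the median was 0.11 for these genes and 0.13 for all loci, and without hippocampus replicate 1 it was 0.19 for both. Hypothalamus replicate 1 was the highest of the 3 at 20 of 35 genes (57.1%, against 43.1% of all loci), among them Gucy1b3, Prkacb and Prkar2b, and the lowest at 7 (20%, against 37.6% of all loci), Prkaca among them. In hippocampus, replicate 4 was the highest at 13 of 33 genes (39.4%, against 34.5% of all loci). Of the 13, 9 were lowest in replicate 1, namely Gucy1a2, Gucy1a3, Gucy1b3, Pde4b, Pde4d, Pde8a, Pde10a, Prkar2a and Prkar2b. Among all loci that were highest in replicate 4, 69.1% were lowest in replicate 1.

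Other genes of the pathway were counted from lists of G proteins, effectors, anchors and cGMP signalling. The shares of all symbols to set beside these counts are 14.5% called in hippocampus and 13.4% in hypothalamus, and 28.2% and 24.4% not overlapping. Of 9 G proteins and cyclase regulators compared, 3 were called in each direction, and the median difference was 0.06. Gnal, the olfactory-type stimulatory α subunit, averaged 7.20 ± 0.78 FPKM (SD, n = 4) in hippocampus against 58.4 ± 7.501 FPKM (SD, n = 3) for hypothalamus, a difference of −2.66. Gnas, which encodes Gαs, read 695 ± 69.6 and 4223 ± 918 FPKM, a difference of −2.29, but has 4 loci in hippocampus and 2 in hypothalamus. Cap2, a cyclase-associated actin regulator, went the other way, at 75.9 ± 4.90 and 29.4 ± 8.40 FPKM (1.69).

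Of 13 anchoring proteins that tether protein kinase A, 3 were called higher in hippocampus and 2 in hypothalamus. Akap5, the anchor of the postsynaptic density that also binds calcineurin, averaged 11.4 ± 3.53 FPKM in hippocampus against 1.64 ± 0.49 FPKM for hypothalamus, a difference of 2.78. Akap12 read 5.03 ± 0.81 and 74.0 ± 17.8 FPKM, a difference of −3.48. Calmodulin genes, whose product stimulates Adcy1, Adcy8 and the Pde1 enzymes, were higher in every hippocampus library at 3 of 3 genes and called at 2, and Calm2 read 254 ± 80.7 and 57.7 ± 18.1 FPKM (2.42), from 2 loci in hippocampus and 1 in hypothalamus. Neuronal markers were also higher in every hippocampus library at 4 of 5 genes, with rescaled sums of 4479 to 6896 in hippocampus and 2825 to 3414 in hypothalamus, and their part was not tested. Of 6 other cAMP effectors, 1 was called in hippocampus and 2 in hypothalamus. Among 10 inhibitors and targets of protein kinase A the counts were 0 and 2, and among 10 genes of the cGMP pathway 0 and 1. Their median differences were −0.45, −0.21 and −0.36. Of the listed genes called in hypothalamus, Akap14, Hcn4 and Cngb1 passed the 1 FPKM minimum through that tissue alone. They averaged 0.317, 0.380 and 0.136 FPKM in hippocampus and 1.80, 2.97 and 2.18 FPKM in hypothalamus. Their part in the counts of anchors, effectors and the cGMP pathway carries no weight of its own.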

How the data were processed

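The authors deposited 1 table of FPKM per tissue, with a status word beside each value, per the file headers. The submitters' processing notes name TopHat, TopHat2, Bowtie, Bowtie2, Cufflinks, Cuffdiff and the build rn5, without versions or roles. Annotation and strand setting are not given in the sources used here. Libraries were poly-A selected and randomly primed, per the labels' protocols. The labels do not say that replicates are separate animals.

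Genes were matched by symbol, taking the locus with the highest mean FPKM (16223 symbols in hippocampus, 16183 in hypothalamus). Loci with a status other than OK (86 and 24) were left out of the comparison; shares kept Adcy2. Values were rescaled so that shared symbols summed to 1000000 in every library, with a pseudocount of 1, a minimum mean of 1 FPKM and a 2-fold limit, in Python 3.11.15, pandas 2.3.3 and numpy 2.4.6. A run was assigned from single-locus neighbours within 15 rows on each side, at least 5. Promoters were not matched for Gucy2d and Gucy2e, whose rows lie on other chromosomes than the RefSeq genes of those names. The call rule was tested on simulated data. Depth is unknown: low values of 2 libraries shared a common step in 17.8% to 25.3% of low loci for pairs without replicate 1, and in at most 2.29% for pairs with it, so no counts were recovered.

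Members and lists were chosen with earlier results of these data known. Values in every library are given for genes called, for the most abundant of each family and for genes whose loci disagree in replicate 1, and means for the 3 called pathway genes with the largest difference in each direction. Other genes were named after their values were seen. Taking the annotated strand, and keeping all loci whatever their status, were alternatives added after the data were seen.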

Additional observations from a re-analysis of the deposited data

Results flagged for a closer look

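Among the 4 hippocampus libraries, 38 results were examined for a single extreme value (33 genes, Adcy2 among them, and 5 family sums), and 1 was found where chance alone, at about 1 in 20, gives 1.9. Adcy8 read 4.86, 4.84, 4.99 and 4.12 FPKM in replicates 1 to 4. Replicate 4 was the low library, and its distance from the next value made up 0.832 of the range, just past Dixon's 95% critical value. The hypothalamus group, with 3 libraries, was not examined in this way.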

How the results depend on the processing

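The median difference over all symbols was 0.05 after rescaling, −0.21 with FPKM as deposited, −0.09 with upper-quartile and 0.01 with median-ratio scaling, and the hippocampal share of all calls was 52.0%, 33.8%, 42.9% and 50.4%. Adcy9, Pde2a and Pde10a were called in hippocampus under all 19 settings, and Gucy2c in hypothalamus under the 18 that kept it. Each of those 18 used or included the hypothalamic locus XLOC_019289, so none could show whether the Gucy2c call rests on that locus. The count in hypothalamus was 3, and became 1 with a pseudocount of 5 and 0 with a minimum mean of 5 FPKM, which removes all 3 genes. Leaving out 1 library at a time gave 4 to 8 calls in hippocampus and 2 to 3 in hypothalamus, and leaving out replicate 1 of both tissues gave 8 in hippocampus. Over all symbols, 27.2% to 32.1% were then called in either direction with 1 library left out. The same share was 34.1% without replicate 1 of both tissues and 27.9% with all libraries. The median SD of the genes described here ran from 0.138 to 0.201 in hippocampus and from 0.113 to 0.303 in hypothalamus when 1 library was left out. No called gene changed direction under any setting. The cause of these shifts was not tested. No paired analysis was possible because no test was made between the tables and the labels do not tie the replicate numbers to animals. Differences among genes near 1 FPKM are limited by the unknown depth.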

Other observations

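Adcy3, a calmodulin-sensitive cyclase of neuronal primary cilia, was listed in the hypothalamus table alone and read 17.2, 15.5 and 18.6 FPKM, above Adcy8 and Adcy1 there. It entered no share or comparison, and its hippocampal level was not analysed here. Pde6b, a rod photoreceptor subunit, read 0.575, 0.916, 1.02 and 0.940 FPKM in hippocampus at a locus among + strand genes, whereas RefSeq places the gene on the − strand. Its hippocampal locus among − strand genes read at most 0.0294 FPKM and its hypothalamic locus at most 0.0143 FPKM.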
